A study of Homo sapiens with 12 samples.

Results

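The 40 genes described here act in the G2 phase of the cell cycle, when a cell with replicated DNA prepares to divide, and in mitosis itself. They were chosen by gene name, not by a threshold on measured values, from the 59324 genes of an RNA sequencing table. The choice was made with earlier results of these data known. All 40 genes had a mean of at least 1 TPM (a transcript abundance corrected for length and scaled to a fixed total per library), the level needed for testing, over the 12 libraries. They comprise 7 kinases, 7 kinetochore and spindle checkpoint proteins, 4 kinesin motors, 7 cyclin, CDC25 and CKS genes, the transcription factor FOXM1, 2 further chromosomal passenger subunits, 3 genes tied to the anaphase-promoting complex, 7 spindle and cytokinesis proteins and 2 chromosome proteins. The cells were MDA-MB-468, an established human line from a triple-negative breast cancer. The 3 control libraries came from cells labelled as control, and 3 libraries came from cells given SAHA at 10 µM for 12 h. A further 3 came from cells given sonidegib at 10 µM for 72 h, and the last 3 from cells pretreated with sonidegib in the same way and also given SAHA, called the combination below. SAHA, or vorinostat, inhibits histone deacetylases, and sonidegib inhibits Smoothened, the membrane protein that relays Hedgehog signals. Whether the control cells received a vehicle was not given in the sources used here. The labels do not state whether the libraries within a group are separate cultures. The p-values therefore reflect variation among these libraries alone, part or all of which may be technical.

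Entry into mitosis is driven by the kinase CDK1 bound to cyclin A or B, which CDC25 phosphatases switch on. Polo-like and Aurora kinases then build the spindle, kinetochores attach chromosomes to it, and the checkpoint kinases and MAD2L1 hold back the anaphase-promoting complex until every chromosome is attached. Many of these genes are transcribed together late in the cycle and fall silent in cells that leave it, through promoter elements called the cell cycle genes homology region, which the MuvB complexes with B-MYB and FOXM1 bind, and through CCAAT boxes bound by NF-Y. Their summed mRNA is widely used as a readout of how many cells in a culture are dividing.

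The promoters of 7 members are shown because the genes differed widely in their response to the drugs, while all 7 stretches hold CCAAT matches and all but that of PTTG1 hold TTTGAA. The sequences are RefSeq promoter windows of 300 bases, from 250 before to 50 after the annotated start, on GRCh38.p14, and only bases upstream of the start are printed. Capitals mark the homology region core TTTGAA, its variant (TTCGAA) and the CCAAT box core, on either strand. On the opposite strand the first reads TTCAAA and the CCAAT core reads ATTGG, while the variant is the same on both strands.
KIF11: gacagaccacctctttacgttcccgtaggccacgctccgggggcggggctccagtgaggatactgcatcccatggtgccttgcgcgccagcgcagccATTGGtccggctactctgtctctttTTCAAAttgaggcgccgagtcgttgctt
MKI67: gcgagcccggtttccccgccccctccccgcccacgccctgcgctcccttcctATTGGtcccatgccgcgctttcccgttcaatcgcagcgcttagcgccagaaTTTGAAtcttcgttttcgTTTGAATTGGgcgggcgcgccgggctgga
CDC20: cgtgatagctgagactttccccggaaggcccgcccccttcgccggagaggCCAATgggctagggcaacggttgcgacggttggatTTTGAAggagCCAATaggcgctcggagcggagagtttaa
TOP2A: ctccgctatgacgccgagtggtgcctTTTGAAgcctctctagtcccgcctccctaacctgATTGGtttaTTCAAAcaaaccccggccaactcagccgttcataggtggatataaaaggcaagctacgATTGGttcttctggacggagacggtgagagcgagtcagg
CKS1B: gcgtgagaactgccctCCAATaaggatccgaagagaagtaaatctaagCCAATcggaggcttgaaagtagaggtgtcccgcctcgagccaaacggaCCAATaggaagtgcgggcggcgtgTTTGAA
CKS2: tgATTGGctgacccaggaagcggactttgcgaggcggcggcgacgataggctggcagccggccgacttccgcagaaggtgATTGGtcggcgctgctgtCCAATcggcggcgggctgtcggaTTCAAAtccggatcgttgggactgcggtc
PTTG1: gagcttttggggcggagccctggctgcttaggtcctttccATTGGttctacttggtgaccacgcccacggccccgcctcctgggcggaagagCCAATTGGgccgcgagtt
The stretch of KIF11 lies at chr10:92592980-92593129 on the plus strand and that of MKI67 at chr10:128126424-128126573 on the minus strand. That of CDC20 lies at chr1:43358831-43358954 on the plus strand, and that of TOP2A at chr17:40417951-40418116 on the minus strand. CKS1B is shown from chr1:154974531-154974656, CKS2 from chr9:89311045-89311194 and PTTG1 from chr5:160421712-160421821, all on the plus strand. KIF11, CKS1B, CKS2 and MKI67 had a TTTGAA match whose first base lay -28, -30, -29 and -29 bases from the start. In MKI67 the match at -29 shares bases with an ATTGG match, so that its capitals run together. In TOP2A the nearest match lay at -151. The stretch of PTTG1 held no TTTGAA and 3 CCAAT matches, of which 2 overlap.

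RefSeq windows were found for 33 members, which had 43 windows, and AURKA, TTK, BUB3, FOXM1, BIRC5, UBE2C and TPX2 were not matched. TTTGAA was present in 27 of the 43 windows (62.8%), against 10.1% of the 14212 windows of all genes tested and 15.2% of all 35116 windows. CCAAT was present in 32 windows (74.4%), against 35.1% and 34.6%. Both stood in 22 windows (51.2%), against 4.02% and 5.90%. The variant TTCGAA was found in 3 member windows (6.98%), against 1.65% and 1.45%. A match is a description of the letters and does not show a bound site. Among the 33 matched members, the median log2 change with SAHA was -0.91 for the 24 genes with TTTGAA in a window and -0.89 for the 9 without it.

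**Figure D1:**
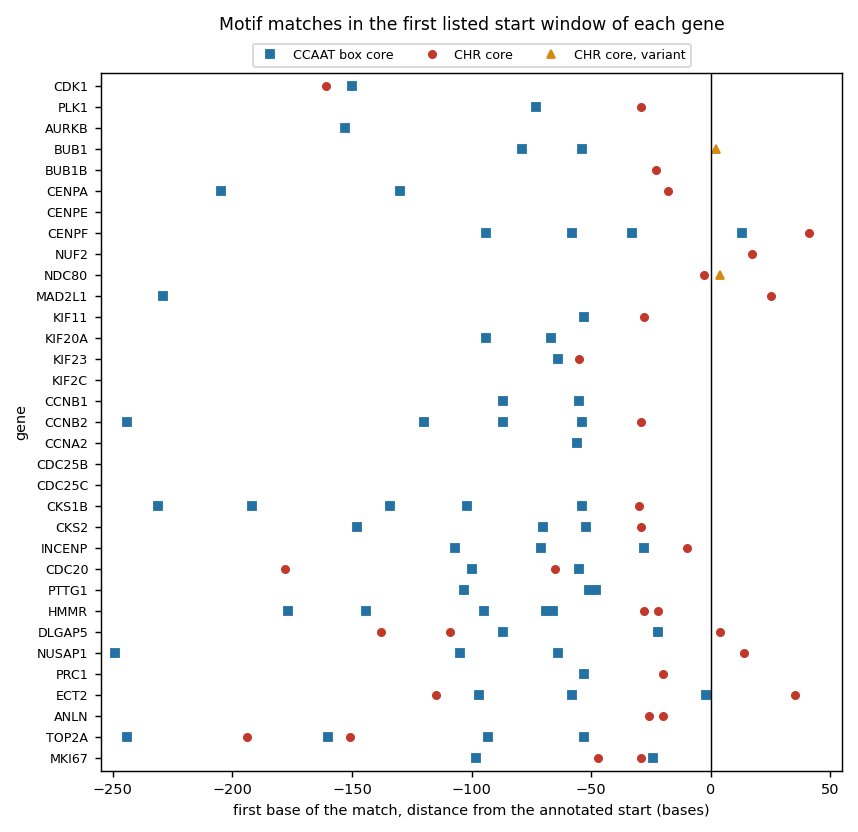
Position of motif matches in the first listed RefSeq window of 33 members, in bases from the annotated start (vertical line at 0); squares stand for CCAAT, circles for TTTGAA and triangles for TTCGAA, each at the first base of its match on either strand. Of these windows, 29 held at least one match, 23 held TTTGAA, 25 held CCAAT, and in 14 a TTTGAA match began within 60 bases before the start.

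Between 13204 and 13874 genes reached 1 TPM in each library. Sequencing depth is unknown, since TPM keep no read counts. Epithelial markers summed to between 5197 and 10448 TPM in every library, led by KRT19, and the sum was lower in the 6 libraries with sonidegib (5197 to 5674) than in the 6 without it (8745 to 10448). EPCAM, KRT8, KRT18 and KRT19 shared this direction. EGFR did not, at 537 to 678 TPM with sonidegib and 516 to 664 without it, nor did CDH1, at 22.5 to 35.9 and 18.4 to 49.3. Of the other cell types looked for, 4 of 5 leukocyte markers including PTPRC were below 0.5 TPM everywhere, while CD14 reached 336 TPM. The 3 endothelial markers summed to at most 1.06 TPM and the 5 fibroblast markers to at most 13.1 TPM, nearly all of it COL1A1. The RNA5S genes, which encode the 5S ribosomal RNA, had a sum of 1488 to 12641 TPM in the 6 sonidegib-treated libraries and were listed at 0 in the remaining 6. Every comparison of a group with sonidegib against one without it crosses this split, so a change with sonidegib and this difference between libraries cannot be told apart. Neither SAHA effect, with or without sonidegib, crosses it. The interaction sets these effects against each other, one from each side of the split. A part of sonidegib in it therefore cannot be told apart from this difference either. Mitochondrial ribosomal RNA took 0.565% to 0.670% of the control libraries, 1.18% to 1.35% with SAHA, 2.06% to 2.48% with sonidegib and 2.41% to 2.86% with the combination. Whether these differences between libraries bear on the mitotic genes was not tested beyond repeating the fit without ribosomal and mitochondrial genes, which left 1 member higher and 35 lower with SAHA, 24 higher and 3 lower with sonidegib, and 28 higher in the interaction. Of the 14180 genes tested in that fit, 4873 were higher and 3496 lower with SAHA. The counts were 3935 and 3936 with sonidegib and 1578 and 3008 in the interaction.

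SAHA alone lowered nearly the whole group. Of the 40 genes, 36 were lower than in control and 1, PTTG1, was higher, where 26.9% of all 13937 tested genes were called lower and 31.8% higher (58.7% in either direction). The median log2 change of the members was -0.91, against 0.05 over all tested genes, and their mean levels ran from 34.5% of control (MKI67) to 115% (PTTG1), with a median of 52.0%. A gene was called when limma's adjusted p was under 0.05 (Benjamini-Hochberg over all tested genes). A lower value in a bulk culture can come from fewer cells in G2 and mitosis or from less RNA per cell, and these cannot be told apart here. In the 3 genes that were not called, CDC25C, CKS2 and INCENP, the log2 differences were -0.40, 0.12 and -0.07. CDC25C was called lower in 5 of 11 other settings (-0.49 to -0.44, adjusted p = 0.0141 to 0.0498). It was also called in 3 of the 12 fits that left out 1 library.

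Sonidegib alone was accompanied by the opposite direction in most genes. With it 24 members were higher than control and 3 were lower (BUB3, CDC25B and MKI67), where 26.1% of all tested genes were called higher and 29.2% lower (55.3% in all). The members' median log2 change was 0.35, against -0.02 over all tested genes, and their mean levels ran from 71.1% of control (MKI67) to 215% (TOP2A), with a median of 128%. Under a median-of-ratios or a 75th percentile scaling 31 members were higher and 3 lower, the added 7 being PLK1, AURKA, NUF2, CCNB1, CCNA2, DLGAP5 and NUSAP1. The background moved too. Of the 13937 tested genes 3641 were higher and 4071 lower as deposited. The counts were 4280 and 3735 under median-of-ratios and 4205 and 3806 under the 75th percentile scaling.

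With both drugs the median of the genes lay near control, with calls in both directions. As deposited, the share of members called in either direction was no higher than that of all tested genes. Against control, 14 members were higher and 9 lower, where 29.7% of all tested genes were called higher and 34.0% lower (63.7% in all), and the median log2 change was 0.07. Levels ran from 46.6% of control (CDC25B) to 207% (CDK1). This split moved with the scaling. It was 18 higher and 7 lower under median-of-ratios (with BUB1B, KIF20A, BIRC5 and TPX2 added and CCNA2 and UBE2C lost), 19 and 6 under quantile normalization, and 12 and 11 without library 3 of the combination, which held the highest value of its group in 35 of the 40 members. Over all tested genes that library held the highest value in 60.0%. Of the 13937 tested genes 4140 were higher and 4743 lower as deposited. The counts were 4771 and 4404 under median-of-ratios, 4666 and 4472 under quantile normalization, and 3609 and 4802 without that library.

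Set against SAHA alone, the combination was higher for 36 of the 40 members and lower for none, where 18.0% of all tested genes were called higher and 33.0% lower, 50.9% in all (limma; at an unadjusted p under 0.05 the counts were also 36 and 0). The median ratio of means was 2.03, from 0.919 (CDC25B) to 4.75 (TOP2A). The median log2 change was 0.96, while that of all tested genes was -0.12. Other scalings moved this last value by 0.115 to 0.118, and under median-of-ratios 38 members were higher. The background split moved too: among all genes called, 35.3% were higher as deposited and 49.3% after median-of-ratios scaling. Without library 3 of the combination the count stayed at 36.

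**Figure D2:**
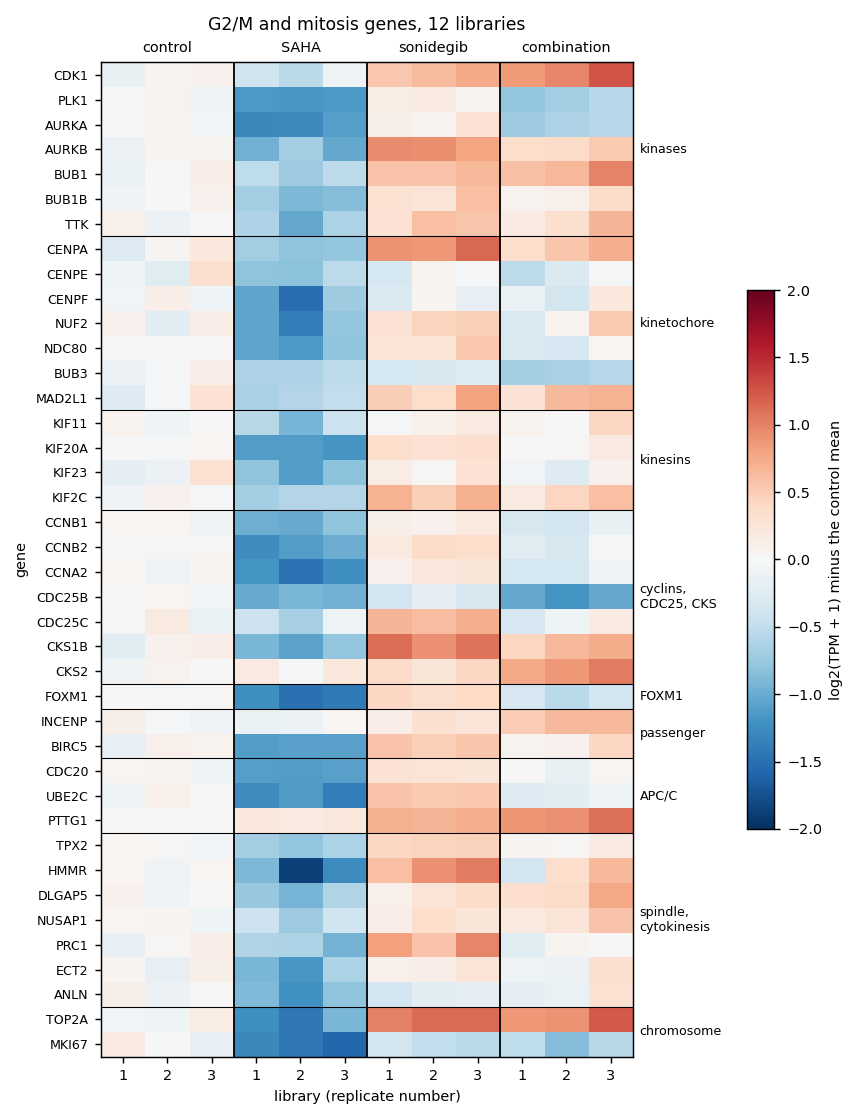
Level of each of the 40 genes in each of the 12 libraries, as log2(TPM + 1) minus the mean of the 3 control libraries (colour scale, red above and blue below control); rows are grouped by role and columns by treatment with the replicate number below. The SAHA columns are blue for nearly all genes, the sonidegib columns are pale to red for most, and the combination columns differ from gene to gene, with CDK1, TOP2A, PTTG1 and CKS2 red and CDC25B, PLK1 and AURKA blue.

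Among the kinases, CDK1 and PLK1 parted ways in the combination. CDK1, the kinase at the centre of mitotic entry (ENSG00000170312, chr10:60778331-60794852), stood at 41.1, 47.5 and 48.7 TPM in control, 34.2, 31.0 and 42.4 with SAHA, 67.1, 71.0 and 77.8 with sonidegib, and 83.2, 90.7 and 111 with the combination. The SAHA and control libraries overlapped, the sonidegib libraries lay above both, and the combination libraries lay above all others. The fall with SAHA, -0.35 ± 0.13 (adjusted p = 0.0331) on the log2(TPM + 1) scale, lost its call without control library 2 or 3 or SAHA library 1 or 2 (-0.32 to -0.25). It was also lost with no filter on low values, without ribosomal and mitochondrial genes and when only the compared groups were fitted (adjusted p = 0.0514 to 0.0733). The combination exceeded control by 1.03 ± 0.13 (adjusted p = 2.56e-05). It exceeded sonidegib by 0.39 ± 0.13 (adjusted p = 0.0319), a call lost without sonidegib library 1 or 2 or combination library 2 or 3 (0.27 to 0.41).

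PLK1, the polo-like kinase that acts in centrosome maturation, spindle assembly and cytokinesis, stood at 57.4, 60.0 and 53.3 TPM in control, 25.2, 24.7 and 25.2 with SAHA, 63.2, 63.7 and 58.9 with sonidegib, and 32.6, 34.7 and 38.0 with the combination. No SAHA library came near the control range, and the combination libraries lay between SAHA and control without overlap. PLK1 was at 44.0% of control with SAHA and at 61.7% with the combination, log2 changes of -1.15 ± 0.067 (adjusted p = 7.11e-08) and -0.68 ± 0.067 (adjusted p = 4.05e-06). AURKA, the Aurora kinase of spindle poles, followed the same course at 33.0, 34.7 and 31.9 TPM in control, 13.0, 13.1 and 14.9 with SAHA, 36.2, 34.7 and 40.7 with sonidegib, and 19.6, 21.2 and 22.1 with the combination. Its changes were -1.22 ± 0.080 (adjusted p = 1.74e-07) with SAHA and -0.64 ± 0.080 (adjusted p = 2.84e-05) with the combination. With sonidegib alone the differences of PLK1 and AURKA, 0.12 and 0.16, were not called (adjusted p = 0.151 and 0.114).

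AURKB, the catalytic subunit of the chromosomal passenger complex, behaved otherwise than its relative. It stood at 26.2, 29.7 and 29.5 TPM in control, 14.2, 17.2 and 13.5 with SAHA, 55.8, 55.2 and 50.0 with sonidegib, and 36.7, 37.0 and 41.1 with the combination, and the 4 groups did not overlap. It fell by 0.89 with SAHA, rose by 0.89 ± 0.093 (adjusted p = 9.75e-06) with sonidegib and was still above control with both drugs, by 0.41 ± 0.093 (adjusted p = 0.00217). BUB1, a kinase of the spindle checkpoint, stood at 17.8, 19.4 and 21.5 TPM in control, 13.5, 11.3 and 13.3 with SAHA, 29.6, 29.4 and 31.6 with sonidegib, and 29.8, 31.4 and 39.6 with the combination. It fell with SAHA (-0.59 ± 0.11, adjusted p = 0.000748) and rose with sonidegib (0.61 ± 0.11, adjusted p = 0.000685). The combination libraries overlapped those with sonidegib alone and lay above control (0.74 ± 0.11, adjusted p = 0.000110). BUB1B, the checkpoint protein BUBR1, stood at 11.2, 11.8 and 12.7 TPM in control, 7.06, 5.89 and 6.09 with SAHA, 14.9, 14.4 and 18.6 with sonidegib, and 12.5, 12.9 and 15.7 with the combination. Its fall with SAHA was -0.81 ± 0.12 (adjusted p = 8.83e-05), and in the combination it was not called against control (0.18, adjusted p = 0.187).

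TTK, also called MPS1, is the kinase that recruits checkpoint proteins to unattached kinetochores. It stood at 18.8, 16.1 and 17.7 TPM in control, 11.1, 8.13 and 11.0 with SAHA, 21.5, 26.9 and 26.3 with sonidegib, and 19.8, 22.1 and 28.6 with the combination. It fell with SAHA (-0.75 ± 0.15, adjusted p = 0.000967) and rose with sonidegib (0.48 ± 0.15, adjusted p = 0.0166), the second call being lost without control library 2 or sonidegib library 2 or 3 (0.42 to 0.44). Its rise in the combination over control, 0.39 ± 0.15 (adjusted p = 0.0374), was lost without control library 2 or 3 or combination library 2 or 3 (0.24 to 0.42). The libraries of sonidegib and of the combination overlapped. In all, 7 of 7 kinases fell with SAHA and 5 of 7 rose with sonidegib, against 26.9% and 26.1% of all tested genes.

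The kinetochore genes all fell with SAHA but differed with sonidegib. CENPA, the histone H3 variant that marks centromeres, stood at 18.2, 22.8 and 25.5 TPM in control, 13.3, 12.2 and 12.4 with SAHA, 42.0, 40.9 and 49.8 with sonidegib, and 28.2, 32.9 and 36.9 with the combination. It was at 56.9% of control with SAHA and 199% with sonidegib, changes of -0.76 ± 0.13 (adjusted p = 0.000333) and 0.97 ± 0.13 (adjusted p = 6.12e-05). All sonidegib libraries lay above all others. With both drugs it lay below sonidegib alone (-0.43 ± 0.13, adjusted p = 0.0203), a call lost without sonidegib library 3 or combination library 1 (-0.34 and -0.33), and above control (0.54 ± 0.13, adjusted p = 0.00298).

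NDC80, which grips microtubules at the outer kinetochore, stood at 45.1, 43.1 and 45.4 TPM in control, 20.9, 19.5 and 25.1 with SAHA, 53.6, 54.1 and 65.2 with sonidegib, and 36.0, 35.2 and 46.0 with the combination. SAHA brought every library to at most 25.1 TPM, well under the control range, a change of -1.01 ± 0.12 (adjusted p = 2.02e-05). Its rise with sonidegib, 0.36 ± 0.12 (adjusted p = 0.0232), was lost without control library 2 or sonidegib library 3 (0.34 and 0.27). NUF2, its partner in the NDC80 complex, was lower, at 4.76 ± 0.70 TPM in control (mean ± SD, n = 3) and 1.77 ± 0.59 with SAHA, a change of -1.07 ± 0.21 (adjusted p = 0.000923). For NUF2 sonidegib gave 0.41 (adjusted p = 0.119).

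CENPF, a large protein of the outer kinetochore and nuclear envelope, and CENPE, a kinetochore kinesin, were not called with sonidegib. CENPF stood at 17.8, 20.5 and 17.4 TPM in control, 8.40, 5.81 and 10.9 with SAHA, 15.0, 19.2 and 16.4 with sonidegib, and 16.7, 14.2 and 21.5 with the combination. Only the SAHA libraries were set apart, and all other libraries lay between 14.2 and 21.5 TPM. Its change was -1.10 ± 0.19 (adjusted p = 0.000458) with SAHA, -0.13 with sonidegib (adjusted p = 0.586) and -0.10 with both (adjusted p = 0.683). CENPE was the least abundant member at 1.49, 1.23 and 2.31 TPM in control, 0.51, 0.50 and 0.83 with SAHA, 1.07, 1.78 and 1.56 with sonidegib, and 0.84, 1.17 and 1.61 with the combination. It fell with SAHA by 0.72 (adjusted p = 0.0104), and at such levels a log2(TPM + 1) change understates the ratio of TPM, which was 36.6% of control.

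MAD2L1 and BUB3 bind checkpoint partners at the kinetochore, and their levels took different courses. MAD2L1 stood at 10.4, 12.4 and 15.6 TPM in control, 7.69, 8.05 and 8.71 with SAHA, 18.2, 16.4 and 22.8 with sonidegib, and 15.7, 20.4 and 21.2 with the combination. It fell with SAHA (-0.58 ± 0.16, adjusted p = 0.00785), and the combination was near the sonidegib level (-0.002, adjusted p = 0.996, with a sign that other scalings turned). Its rise with sonidegib, 0.55 ± 0.16 (adjusted p = 0.0114), was lost without control library 1 or sonidegib library 3 (0.42 both times). BUB3, which also takes part in splicing, stood at 123, 131 and 146 TPM in control, 86.7, 86.7 and 92.6 with SAHA, 104, 106 and 110.2 with sonidegib, and 82.2, 84.7 and 88.8 with the combination. All 3 treated groups lay below control, at 66.6%, 80.2% and 64.0% of its mean. The fall with sonidegib was -0.31 ± 0.064 (adjusted p = 0.00149), but after quantile normalization it was -0.07 (adjusted p = 0.258). BUB3 and CENPE were the kinetochore genes for which the combination was not called against SAHA. The value of CENPE was 0.44 (adjusted p = 0.0927), and it passed the threshold under the 3 other scalings (0.50 to 0.51, adjusted p = 0.0309 to 0.0442). That of BUB3 was -0.06 (adjusted p = 0.486), a difference that changed sign under every other scaling and passed the threshold after quantile normalization (0.14, adjusted p = 0.0445).

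The kinesins fell with SAHA and, apart from KIF2C and KIF20A, were not called with sonidegib. KIF11, or Eg5, pushes spindle poles apart and is one of the genes whose promoter is printed above. It stood at 11.7, 10.3 and 11.1 TPM in control, 7.16, 5.32 and 7.96 with SAHA, 10.7, 12.0 and 12.6 with sonidegib, and 11.6, 11.0 and 15.1 with the combination. The SAHA libraries were lowest without overlap, and the other 9 libraries lay between 10.3 and 15.1 TPM. Its changes were -0.64 ± 0.14 (adjusted p = 0.00221) with SAHA, 0.08 with sonidegib (adjusted p = 0.647) and 0.16 with both (adjusted p = 0.341).

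KIF20A, a kinesin of the central spindle needed for cytokinesis, stood at 39.0, 39.0 and 40.3 TPM in control, 17.7, 17.6 and 16.9 with SAHA, 50.4, 48.6 and 50.0 with sonidegib, and 39.4, 40.2 and 44.8 with the combination. Replicates were close, so that its change with SAHA, -1.14 ± 0.058 (adjusted p = 2.52e-08), and the smaller rise with sonidegib, 0.33 ± 0.058 (adjusted p = 0.000559), both passed. With both drugs it was near control (0.07, adjusted p = 0.317). KIF23, the motor of the centralspindlin complex, stood at 12.5, 13.3 and 18.1 TPM in control, 7.80, 6.08 and 7.75 with SAHA, 16.0, 14.6 and 17.9 with sonidegib, and 13.9, 11.9 and 15.3 with the combination. It fell with SAHA by 0.92 (adjusted p = 0.000216) and was not called in either group with sonidegib. KIF2C, a kinesin that depolymerizes microtubules to correct attachments, stood at 43.8, 48.8 and 45.2 TPM in control, 28.2, 30.2 and 30.4 with SAHA, 75.2, 64.0 and 75.4 with sonidegib, and 52.1, 61.9 and 69.8 with the combination. It fell with SAHA (-0.62 ± 0.10, adjusted p = 0.000255), rose with sonidegib (0.62 ± 0.10, adjusted p = 0.000287) and stayed above control with both (0.40 ± 0.10, adjusted p = 0.00455).

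Compared as sets, with genes counted in each set they belong to, the kinases, kinetochore genes and kinesins were all lowered by SAHA. All 7 kinases, all 10 kinetochore genes (the 7 above with BUB1, BUB1B and TTK) and all 5 kinesins (the 4 above with CENPE) were lower, with median log2 changes of -0.81, -0.76 and -0.72. With sonidegib 5 of 7 kinases, 6 of 10 kinetochore genes and 2 of 5 kinesins were higher, and 1 kinetochore gene was lower. The medians were 0.48, 0.40 and 0.15. With both drugs against control the counts were 4 higher and 2 lower, 4 and 1, and 1 and 0. The medians were then 0.39, 0.14 and 0.07. Without BUB1, BUB1B and TTK, the 7 remaining kinetochore genes had 2 higher and 1 lower with both drugs, with a median of -0.10. Of all tested genes 26.9% were called lower with SAHA, and 26.1% higher and 29.2% lower with sonidegib. With both drugs 29.7% of all tested genes were called higher and 34.0% lower. Differences between the sets were not tested.

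**Figure D3:**
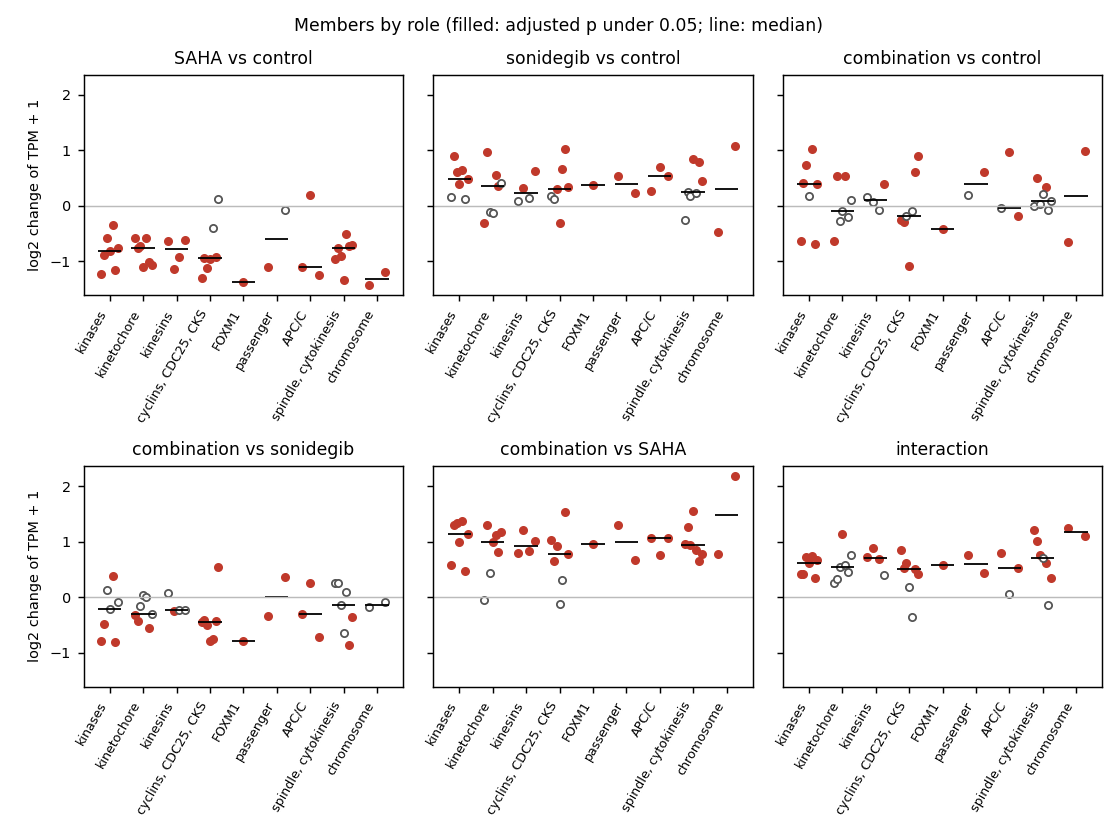
Log2 change of TPM + 1 of each member in the 6 comparisons, by role (one point a gene, each gene in 1 role; filled points passed an adjusted p of 0.05, open points did not, and horizontal lines are medians). With SAHA nearly all points lie below 0, and in the combination against SAHA nearly all lie above 0.

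The 3 cyclins fell with SAHA. With both drugs CCNB1 and CCNA2 were called below control and CCNB2 was not, and neither call held under every setting. CCNB1, cyclin B1, the main partner of CDK1, stood at 117, 116 and 108 TPM in control, 57.2, 55.8 and 64.6 with SAHA, 123, 121 and 131 with sonidegib, and 91.0, 87.2 and 102 with the combination. The combination libraries lay between SAHA and control, with no overlap. Its change was -0.93 ± 0.073 (adjusted p = 7.44e-07) with SAHA and -0.28 ± 0.073 (adjusted p = 0.00544) with the combination. With sonidegib alone it was 0.13 (adjusted p = 0.147). After quantile normalization the combination and control differed by -0.07 (adjusted p = 0.309). CCNB2, cyclin B2, went from 44.6 ± 1.29 TPM in control to 20.1 ± 1.83 with SAHA (-1.11 ± 0.090, adjusted p = 9.77e-07) and 39.2 ± 4.74 with both (-0.19, adjusted p = 0.0870).

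CCNA2, cyclin A2, which acts in S phase and early mitosis, stood at 29.4, 26.7 and 29.8 TPM in control, 12.0, 9.63 and 11.7 with SAHA, 30.3, 33.8 and 34.2 with sonidegib, and 22.2, 22.2 and 27.3 with the combination. It was at 38.7% of control with SAHA (-1.30 ± 0.10, adjusted p = 7.51e-07). The small fall with both drugs, -0.26 ± 0.10 (adjusted p = 0.0441), was lost in 7 of the 12 fits that left out 1 library (-0.26 to -0.21). These left out control library 1 or 3, SAHA library 3, sonidegib library 2 or 3, or combination library 1 or 2. It was lost in 7 of 11 other settings as well.

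CDC25B and CDC25C, phosphatases that activate CDK1, went in different directions with sonidegib. CDC25B stood at 77.5, 79.1 and 73.8 TPM in control, 37.8, 40.2 and 38.8 with SAHA, 58.6, 66.8 and 61.1 with sonidegib, and 37.4, 32.9 and 37.1 with the combination. All treated libraries lay below control, and the combination libraries were the lowest, at 46.6% of the control mean. The changes were -0.96 ± 0.067 (adjusted p = 2.83e-07) with SAHA, -0.30 ± 0.067 (adjusted p = 0.00250) with sonidegib and -1.08 ± 0.067 (adjusted p = 8.39e-08) with both. The sonidegib change was -0.15 (adjusted p = 0.151) after quantile normalization. The combination differed from SAHA by -0.12 (adjusted p = 0.155), which the other scalings turned to between 0.009 and 0.029. CDC25C, a low-abundance gene at 4.94 ± 0.68 TPM in control, was at 3.55 ± 0.89 with SAHA (-0.40, adjusted p = 0.0522), rose to 8.44 ± 0.40 with sonidegib (0.67 ± 0.16, adjusted p = 0.00409) and was at 4.62 ± 0.99 with both.

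CKS1B and CKS2 encode the small, closely related subunits of cyclin-dependent kinase complexes. The printed promoter stretches of both hold 1 TTTGAA and 3 CCAAT matches. The window of CKS1B also held CCAAT matches at -231 and -192, upstream of its printed stretch. The calls of CKS1B and CKS2 differed. CKS1B stood at 69.2, 85.3 and 87.9 TPM in control, 42.0, 37.6 and 46.0 with SAHA, 175, 152 and 171 with sonidegib, and 108, 127 and 135 with the combination. It fell to 51.8% of control with SAHA (-0.93 ± 0.11, adjusted p = 2.55e-05), rose to 205% with sonidegib (1.03 ± 0.11, adjusted p = 1.41e-05) and was at 153% with both (0.61 ± 0.11, adjusted p = 0.000583). The 4 groups did not overlap. CKS2 stood at 123, 135 and 130.2 TPM in control, 147, 126 and 150.5 with SAHA, 168, 154 and 173 with sonidegib, and 219, 237 and 267 with the combination. SAHA libraries overlapped control (0.12, adjusted p = 0.258), while every combination library lay above every other. Its rise was 0.35 ± 0.086 (adjusted p = 0.00513) with sonidegib and 0.89 ± 0.086 (adjusted p = 3.49e-06) with both.

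FOXM1, the transcription factor that drives many genes of this group in G2, was itself lowered by SAHA. It stood at 23.2, 22.5 and 23.6 TPM in control, 9.32, 7.52 and 8.06 with SAHA, 31.1, 28.9 and 30.9 with sonidegib, and 18.1, 15.6 and 17.7 with the combination, with no overlap between any groups. Its level was 36.0% of control with SAHA (-1.38 ± 0.082, adjusted p = 8.53e-08), 131% with sonidegib (0.38 ± 0.082, adjusted p = 0.00223) and 74.2% with both (-0.41 ± 0.082, adjusted p = 0.000991).

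The chromosomal passenger complex, which holds AURKB at centromeres and later at the midzone, held genes with different calls. INCENP, its scaffold, stood at 20.6, 18.4 and 17.9 TPM in control, 17.2, 17.3 and 19.4 with SAHA, 21.0, 23.8 and 22.9 with sonidegib, and 27.4, 30.4 and 30.4 with the combination. SAHA libraries overlapped control (-0.07, adjusted p = 0.454) and the combination libraries were the highest (0.61 ± 0.080, adjusted p = 4.16e-05 against control). Its rise with sonidegib, 0.24 ± 0.080 (adjusted p = 0.0241), was lost without control library 2 or 3 or sonidegib library 2 or 3 (0.20 to 0.23). BIRC5, or survivin, went from 56.8 ± 5.65 TPM in control to 25.8 ± 0.37 with SAHA (-1.10 ± 0.096, adjusted p = 1.77e-06), 82.4 ± 3.13 with sonidegib (0.53 ± 0.096, adjusted p = 0.000621) and 65.2 ± 9.41 with both (0.19, adjusted p = 0.10).

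Of the genes tied to the anaphase-promoting complex, CDC20 and UBE2C fell with SAHA and PTTG1 rose. CDC20, the coactivator that the checkpoint restrains, stood at 195, 197 and 178 TPM in control, 87.9, 87.2 and 88.7 with SAHA, 231, 229 and 225 with sonidegib, and 191, 171 and 196 with the combination. The SAHA libraries were close to one another, at 46.2% of the control mean, a change of -1.10 ± 0.057 (adjusted p = 2.99e-08). With sonidegib it rose by 0.26 ± 0.057 (adjusted p = 0.00214). With both it was -0.03 from control (adjusted p = 0.630), a difference that turned positive under every other scaling and reached 0.22 (adjusted p = 0.00794) after quantile normalization.

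UBE2C, the ubiquitin-conjugating enzyme of the complex, went from 145 ± 10.1 TPM to 60.5 ± 5.40 with SAHA (-1.25 ± 0.074, adjusted p = 7.52e-08) and 212 ± 4.08 with sonidegib (0.54 ± 0.074, adjusted p = 7.56e-05). With both it was -0.18 ± 0.074 (adjusted p = 0.0489) from control, a call lost in 8 of the 12 fits that left out 1 library (-0.18 to -0.13), lost in 7 of 11 other settings and turned to 0.03 by quantile normalization. The 4 fits that kept it left out control library 1, SAHA library 2 or 3, or combination library 3. PTTG1, or securin, the inhibitor of separase that the complex destroys, was the most abundant member. It stood at 237, 240.0 and 235 TPM in control, 275, 268 and 277 with SAHA, 389, 381 and 393 with sonidegib, and 437, 446 and 513 with the combination. The 4 groups did not overlap and ranked in that order. Its changes were 0.20 ± 0.055 (adjusted p = 0.00789) with SAHA, 0.71 ± 0.055 (adjusted p = 1.07e-06) with sonidegib and 0.96 ± 0.055 (adjusted p = 4.53e-08) with both, and it was the one member higher than control in all 3 treated groups.

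All 7 spindle and cytokinesis genes fell with SAHA. HMMR, a microtubule-associated hyaluronan receptor, fell furthest among them and had their largest SE, at 13.7, 12.5 and 13.6 TPM in control, 6.61, 2.88 and 4.97 with SAHA, 20.6, 25.9 and 28.1 with sonidegib, and 10.0, 17.2 and 21.4 with the combination. Its change with SAHA was -1.34 ± 0.27 (adjusted p = 0.00110), and that with sonidegib, 0.85 ± 0.27 (adjusted p = 0.0184), was lost without control library 2 or sonidegib library 2 or 3 (0.76 to 0.82). PRC1, which bundles the microtubules of the midzone, stood at 27.6, 31.5 and 34.1 TPM in control, 20.1, 19.5 and 15.7 with SAHA, 55.1, 46.6 and 62.1 with sonidegib, and 25.9, 32.2 and 30.6 with the combination. Its sonidegib libraries lay above all others, while the combination libraries overlapped control (-0.07, adjusted p = 0.662, and slightly positive under the other scalings). The combination differed from sonidegib alone by -0.86 ± 0.13 (adjusted p = 0.000357), at 54.1% of that level.

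ANLN, anillin, a scaffold of the cleavage furrow, stood at 41.5, 35.1 and 37.6 TPM in control, 20.2, 15.9 and 21.4 with SAHA, 28.9, 32.8 and 33.6 with sonidegib, and 33.5, 34.5 and 47.0 with the combination. The SAHA libraries lay below all others (-0.96 ± 0.14, adjusted p = 9.87e-05). The sonidegib libraries lay below control without a call (-0.25, adjusted p = 0.141), and the combination mean was close to control (-0.004, adjusted p = 0.987, and positive under the other scalings). ECT2, the exchange factor that activates RhoA at the furrow, fell from 30.4 ± 3.14 to 15.9 ± 3.10 TPM with SAHA (-0.91 ± 0.15, adjusted p = 0.000227). It was not called in either group with sonidegib. TPX2, an activator of AURKA, went from 59.9 ± 2.23 to 36.5 ± 2.11 TPM with SAHA (-0.70 ± 0.058, adjusted p = 1.09e-06) and rose to 81.6 ± 1.45 with sonidegib (0.44 ± 0.058, adjusted p = 6.06e-05).

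DLGAP5, or HURP, and NUSAP1, both stabilizers of spindle microtubules, fell with SAHA by 0.76 (adjusted p = 0.000241) and 0.51 (adjusted p = 0.00232). As deposited they were the only members not called with sonidegib (0.24 and 0.24) but higher with both drugs, by 0.50 ± 0.12 (adjusted p = 0.00414) and 0.34 ± 0.11 (adjusted p = 0.0216). Under 4 other settings both were called with sonidegib too. The call for NUSAP1 was lost without control library 3 or combination library 3 (0.30 and 0.22).

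TOP2A and MKI67, the chromosome genes most often used to mark dividing cells, separated under sonidegib. TOP2A, DNA topoisomerase II alpha (ENSG00000131747, chr17:40388516-40417950), stood at 36.2, 35.6 and 41.8 TPM in control, 15.6, 13.4 and 19.5 with SAHA, 77.1, 83.7 and 83.6 with sonidegib, and 69.7, 71.0 and 89.6 with the combination. It fell to 42.7% of control with SAHA (-1.19 ± 0.13, adjusted p = 1.07e-05) and rose to 215% with sonidegib (1.09 ± 0.13, adjusted p = 2.93e-05). With both it remained at 203% (0.99 ± 0.13, adjusted p = 3.99e-05) and was 4.75 times its level with SAHA alone. MKI67, the gene of the proliferation antigen Ki-67 (ENSG00000148773, chr10:128096659-128126385), stood at 27.3, 24.1 and 21.6 TPM in control, 9.37, 8.35 and 7.47 with SAHA, 18.6, 16.9 and 16.4 with sonidegib, and 16.8, 12.8 and 16.1 with the combination. Control libraries were the highest and SAHA libraries the lowest, and the sonidegib and combination libraries overlapped between them. Its changes were -1.43 ± 0.12 (adjusted p = 1.19e-06), -0.47 ± 0.12 (adjusted p = 0.00600) and -0.65 ± 0.12 (adjusted p = 0.000544). Both printed promoter stretches carry 2 TTTGAA and 2 CCAAT matches. The window of TOP2A also held CCAAT matches at -244 and -53, outside its printed stretch.

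**Figure D4:**
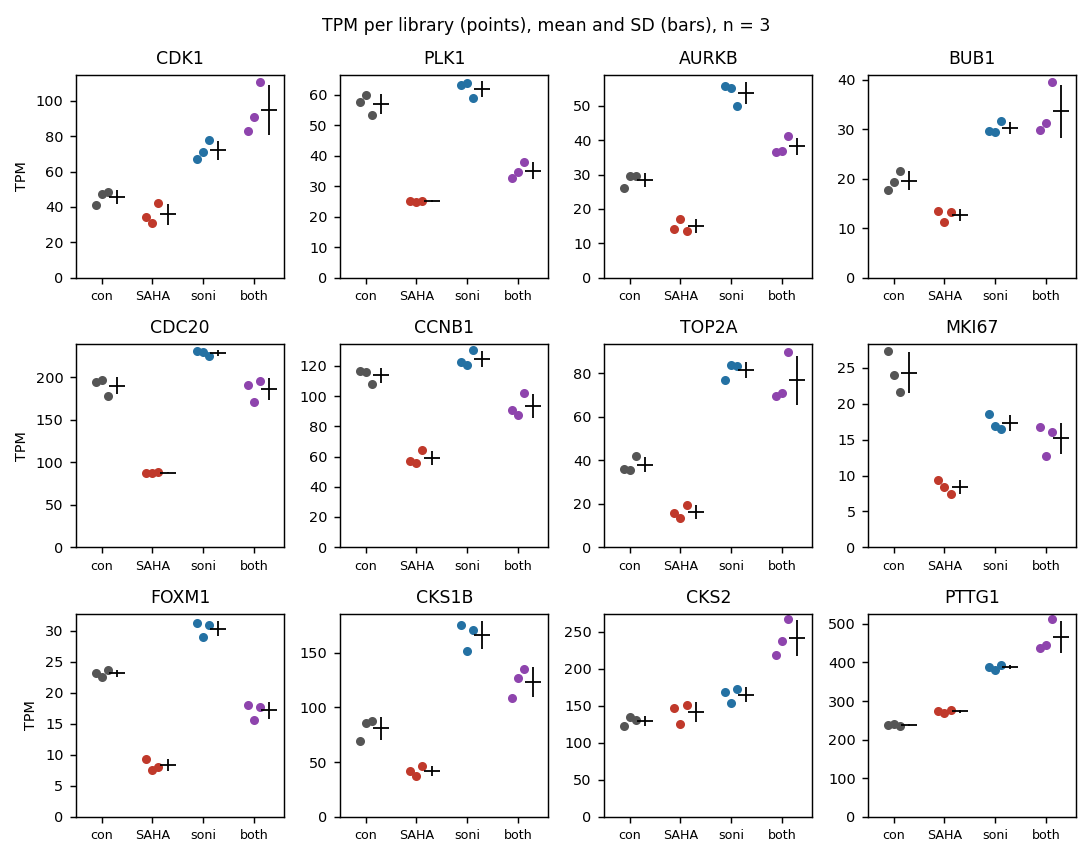
TPM in each library (points) with the mean and SD (bars, n = 3) of 12 members in control (con), SAHA, sonidegib (soni) and combination (both) cells; each panel has its own vertical axis from 0. Most panels have their lowest points with SAHA, while PTTG1 and CKS2 do not, and MKI67 is highest in control.

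The same dose of SAHA lowered fewer of these genes in cells that had also been given sonidegib. Comparing the combination with sonidegib alone, 19 members were lower and 4 higher (CDK1, CKS2, INCENP and PTTG1), where 21.0% of all tested genes were called lower and 17.5% higher (38.5% in all). The median log2 change was -0.28, against -0.91 without sonidegib, and the median level was 81.7% of sonidegib alone. These SAHA effects share no library. The SAHA change was negative for 38 members without sonidegib and for 30 with it, and it was less negative, or more positive, with sonidegib for 38 of 40. The exceptions were PRC1 and CDC25C, with -0.86 against -0.72 and -0.76 against -0.40. Across the 40 genes the SAHA changes with and without sonidegib had a Pearson r of 0.607 and a Spearman rho of 0.543, as a description of genes measured in the same libraries.

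The difference of these effects was tested as the interaction, which is the SAHA change with sonidegib minus that without it. These changes come from opposite sides of the RNA5S split described above, which cannot be told apart from sonidegib. It was positive and called for 28 of 40 members and negative and called for none (limma; 33 and 0 at an unadjusted p under 0.05), where 11.8% of all tested genes were called positive and 19.7% negative (31.4% in all). The median was 0.60, against -0.07 over all tested genes, a value that quantile normalization moved by 0.10. That scaling also moved the share of positive calls among all genes called from 37.5% to 50.3%. Without library 3 of the combination 24 members were called, and without SAHA library 2, the lowest of its group in 27 of 40 members, 25. In these fits 1388 and 1418 of all tested genes were called positive, against 1642 as deposited.

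The largest interactions were those of MKI67 (1.25 ± 0.17, adjusted p = 0.000228), ANLN (1.21 ± 0.20, adjusted p = 0.000776), CENPF (1.13 ± 0.27, adjusted p = 0.00863) and TOP2A (1.10 ± 0.18, adjusted p = 0.000971). For CENPF and ANLN, SAHA gave 0.04 and 0.25 in the presence of sonidegib, neither called. For FOXM1, PLK1 and AURKA the SAHA fall remained large with sonidegib, at -0.79, -0.80 and -0.80, and their interactions were 0.59 ± 0.12 (adjusted p = 0.00285), 0.35 ± 0.095 (adjusted p = 0.0165) and 0.42 ± 0.11 (adjusted p = 0.0145). All 7 kinases, 4 of 10 kinetochore genes and 3 of 5 kinesins were called, with medians of 0.61, 0.59 and 0.69. BUB1, BUB1B and TTK are counted both as kinases and as kinetochore genes. Without them, 1 of 7 kinetochore genes was called, with a median of 0.55. Some interaction calls were lost in fits that left out 1 library. That of AURKB was lost without control library 2 or 3, SAHA library 1 or 3, sonidegib library 2 or 3, or combination library 3 (0.34 to 0.43). That of CKS1B was lost in 8 of the 12 fits that left out 1 library (0.43 to 0.53) and kept without control library 1, SAHA library 3, sonidegib library 1 or combination library 1. That of KIF23 was lost without SAHA library 2, sonidegib library 1 or 2, or combination library 1 or 3 (0.59 to 0.69). That of TTK was lost without control library 1 or 3, SAHA library 2, sonidegib library 1, or combination library 3 (0.52 to 0.66). That of CKS2 (0.42) was lost without control library 2 or sonidegib library 2 (0.39 and 0.37).

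Members not called in the interaction included CENPA (0.33, adjusted p = 0.195), PTTG1 (0.06, adjusted p = 0.618), CDC25B (0.18, adjusted p = 0.172) and HMMR (0.71, adjusted p = 0.184). NUF2, NDC80, BUB3, MAD2L1 and KIF2C had values of 0.76, 0.45, 0.26, 0.58 and 0.39. These missed the threshold as deposited and passed it under 4 or 5 of the other settings. CENPE (0.55), CDC25C (-0.36) and PRC1 (-0.14) complete the 12.

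**Figure D5:**
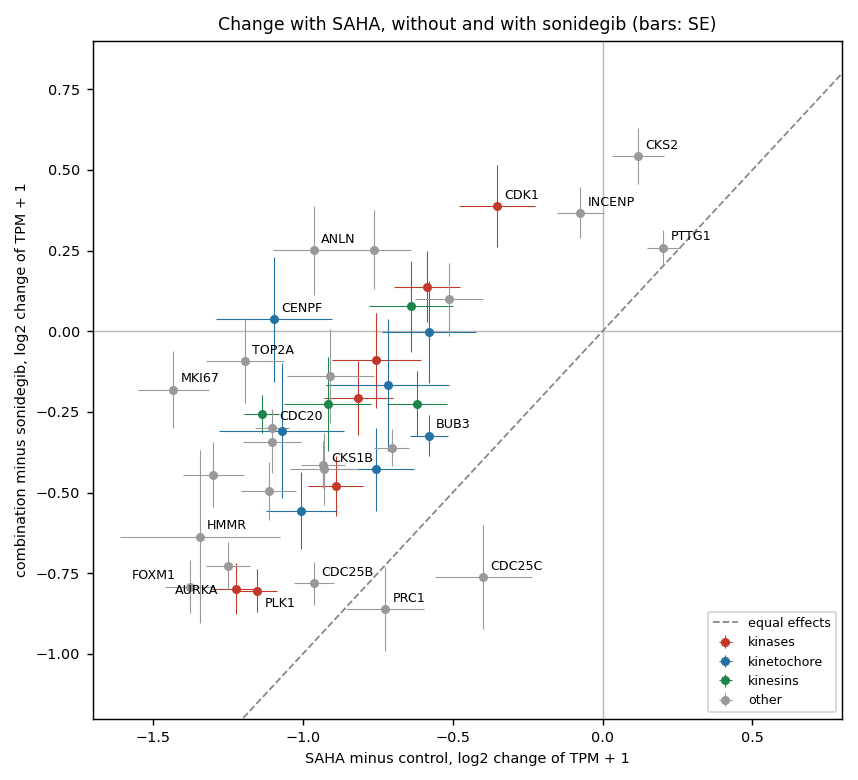
Change with SAHA in cells given sonidegib (vertical axis, combination minus sonidegib) against the change with SAHA alone (horizontal axis, SAHA minus control), both as log2 change of TPM + 1, for the 40 genes; bars are standard errors and the dashed line marks equal effects. Of the 40 points 38 lie above the dashed line, and PRC1 and CDC25C lie below it.

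Combining the calls against control, 9 genes were lower with SAHA and higher in both groups with sonidegib (CDK1, AURKB, BUB1, TTK, CENPA, MAD2L1, KIF2C, CKS1B and TOP2A). Another 9 were lower with SAHA, higher with sonidegib and not called with both (BUB1B, NDC80, KIF20A, CCNB2, BIRC5, CDC20, TPX2, HMMR and PRC1). A further 7 were lower with SAHA and not called in the other groups (CENPE, CENPF, NUF2, KIF11, KIF23, ECT2 and ANLN). BUB3, CDC25B and MKI67 were lower in all 3 treated groups, and PLK1, AURKA, CCNB1 and CCNA2 were lower in both groups with SAHA and not called with sonidegib. The 3 comparisons share the control libraries, so these patterns are a tally of calls and not independent evidence. The share of all tested genes with each pattern was not counted. Of all tested genes 58.7% were called with SAHA, 55.3% with sonidegib and 63.7% with both. Some of the calls tallied were lost without single libraries, as given above. That of BUB1B with sonidegib was also lost, without sonidegib library 3 (0.28, adjusted p = 0.0617). With no filter on low values the calls of NDC80 and HMMR with sonidegib and of TTK with both drugs were lost.

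Values of some members may include reads of a neighbour, because whether reads were assigned by strand was not given in the sources used here. In the GENCODE release 29 annotation 17 of the 40 genes overlap a gene on the opposite strand. That gene reached a mean of 1 TPM for 7 of them, namely KIF20A, CCNA2, CDC25C, FOXM1, ANLN, NUF2 and KIF2C. Named pseudogenes exist for 9 members, and none of these pseudogenes reached a mean of 1 TPM.

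The 40 genes and the other mitotic genes described here were chosen with earlier results of these data known. Calls among other mitotic genes were more mixed than among the 40, a difference that was not tested. A list of 133 such genes, of which 131 were tested, had 85 lower and 10 higher with SAHA (median -0.50), 27 lower and 34 higher with sonidegib (0.05), and 43 lower and 36 higher with both (0.03). With SAHA 64.9% of those tested were thus lower, against 26.9% of all tested genes. The shares higher with sonidegib (26.0% against 26.1%) and higher or lower with both (27.5% against 29.7% and 32.8% against 34.0%) lay near those of all tested genes. Against SAHA alone the combination was higher for 74 and lower for 15 (0.48), and the interaction was positive for 53 and negative for 1 (0.41), shares of 56.5% higher and 40.5% positive against 18.0% and 11.8% of all tested genes. By function, SAHA lowered 7 of 8 condensin genes, 10 of 12 cohesin and separase genes, 7 of 10 further kinesins and 9 of 10 further mitotic kinases tested. The extremes in the condensin and kinetochore sets were SMC4, the core ATPase of condensin (-1.91 ± 0.23, adjusted p = 2.22e-05), and PMF1, a subunit of the MIS12 kinetochore complex (-2.55 ± 0.069, adjusted p = 3.01e-10). PMF1 can share reads with its read-through transcript PMF1-BGLAP. CENPW and CENPT, subunits of the same inner kinetochore complex, rose with SAHA by 0.91 ± 0.15 (adjusted p = 0.000268) and 0.83 ± 0.14 (adjusted p = 0.000288).

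A set of 17 genes held the other subunits and regulators of the anaphase-promoting complex together with the phosphatase CDC25A and cyclin F (CCNF). Of these 7 were lower and 3 higher with SAHA, 8 were lower and none higher with sonidegib (limma; 9 lower and 0 higher at an unadjusted p under 0.05), and against SAHA alone the combination was lower for 6 and higher for 1. The 6 lower are 35.3% of the set, near the 33.0% of all tested genes, while 47.1% were lower with sonidegib against 29.2%. The 1 that was higher was FBXO5, or EMI1, an inhibitor of the complex (1.63 ± 0.14, adjusted p = 3.77e-06), which had fallen with SAHA (-1.43 ± 0.14, adjusted p = 5.90e-06) and had the largest positive interaction of its set (1.56 ± 0.20, adjusted p = 0.000190). With sonidegib the largest rises in the list were those of SPC24, a partner of NDC80 and NUF2 (1.12 ± 0.14, adjusted p = 5.01e-05), and NEK2, a centrosomal kinase (1.05 ± 0.089, adjusted p = 1.89e-06). The largest falls were those of STAG1, a cohesin subunit (-1.41 ± 0.14, adjusted p = 5.42e-06), and CDC25A (-1.19 ± 0.18, adjusted p = 0.000186). STAG1 fell further with both drugs (-2.08 ± 0.14, adjusted p = 1.31e-07), as did TFDP1, the dimerization partner of E2F factors (-1.81 ± 0.099, adjusted p = 3.52e-08), while SPC24 and NEK2 were higher than control by 1.38 and 1.41. TTTGAA was present in 37.2% and CCAAT in 54.7% of the 148 RefSeq windows of these genes.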

How the data were processed

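RNA sequencing libraries of total RNA from MDA-MB-468 cells were grouped by the treatment in the labels, with 3 libraries in each of 4 groups. The authors deposited 1 table of TPM with a column per library. TPM are scaled within each library after a correction for transcript length and keep no read depth. Bowtie2 2.4.1 and GRCh38 are named in the submitters' processing notes. The quantifier, the annotation and the use of strand were not given in the sources used here. RNA was extracted with TRIzol per the labels' protocols.

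Values were analysed as log2(TPM + 1), so fold changes of low genes are understated. Genes averaging 1 TPM or more across the 12 libraries, 13937 of 59324, were fitted together with limma 3.58.1 in R 4.3.3 (lmFit, contrasts.fit and eBayes with a trend). The model had 4 group means and 8 residual degrees of freedom. Each test was two-sided. Benjamini-Hochberg adjustment ran over all tested genes of a comparison, and genes were called at an adjusted p under 0.05. The interaction is combination minus sonidegib minus SAHA plus control. The script was tested on simulated data. Summaries were made with Python 3.11.15 and pandas 2.3.3.

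All 40 members were accounted for. Values in every library are given for 26 fixed members and for the 3 largest rises and 3 largest falls among called members of each comparison. At most 2 rises and 2 falls per comparison are named from the list of 133 other mitotic genes. The members and the lists were chosen with earlier results of these data known. Alternatives tried were other pseudocounts, filters and scalings, no ribosomal or mitochondrial genes, no trend, fits of only the groups compared, a replicate block and leaving out each library. Coordinates of genes follow GENCODE release 29 and promoter sequences RefSeq on GRCh38.p14.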

Additional observations from a re-analysis of the deposited data

Results flagged for a closer look

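The SAHA effect differed between cells with and without sonidegib for 28 of the 40 members, by the interaction term of the limma fit. Of all tested genes 11.8% were called positive in it and 19.7% negative. Each value is the log2 change with SAHA in the presence of sonidegib minus that in its absence, and all 28 are positive. Chromosome and FOXM1 genes had values of 1.25 (MKI67), 1.10 (TOP2A) and 0.59 (FOXM1). Among spindle and cytokinesis genes the values were 1.21 for ANLN, 1.01 for DLGAP5, 0.77 for ECT2, 0.61 for NUSAP1 and 0.34 for TPX2. Among kinases they were 0.74 for CDK1, 0.72 for BUB1, 0.66 for TTK, 0.61 for BUB1B, 0.42 for AURKA, 0.41 for AURKB and 0.35 for PLK1. CENPF, a kinetochore gene, had 1.13. The kinesins KIF20A, KIF11 and KIF23 had 0.88, 0.72 and 0.69. The cyclin and CKS genes CCNA2, CCNB2, CCNB1, CKS1B and CKS2 had 0.85, 0.62, 0.52, 0.50 and 0.42. The genes of the anaphase-promoting complex CDC20 and UBE2C had 0.80 and 0.52, and the passenger subunits BIRC5 and INCENP 0.76 and 0.44. Groups of 3 libraries are too small for a search for single outlying libraries.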

How the results depend on the processing

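The 12 counts of members called higher or lower stayed within 1.5 times their value under the 11 other settings that could be run, with 1 exception: 1 member in place of 3 was lower with sonidegib after quantile normalization. Of 240 single values, 7 changed sign under such a setting, all but UBE2C uncalled as deposited: BUB3, CDC25B (both against SAHA), MAD2L1 (against sonidegib), CDC20, PRC1, ANLN and UBE2C (against control). Quantile normalization brought BUB3 to 0.14, CDC20 to 0.22 and UBE2C to 0.033. Without 1 library 16 uncalled values changed sign. Leaving out 1 library at a time gave 1 higher and 35 to 37 lower members with SAHA, 18 to 24 higher and 3 lower with sonidegib, and 12 to 14 higher and 7 to 11 lower with both. It gave 3 to 4 higher and 17 to 21 lower for the combination against sonidegib, 36 to 37 higher and 0 lower against SAHA, and 24 to 31 higher and 0 lower for the interaction. In the same fits 3266 to 3801 of the 13937 tested genes were lower with SAHA and 3108 to 3675 higher with sonidegib. For the combination 2073 to 2504 were higher against SAHA, and 1336 to 1686 were positive in the interaction. An arm left with 2 libraries takes its spread from all groups. The numbers were not taken to pair libraries, since over 18 same-numbered pairs the correlation of deviations ran from -0.059 to 0.11. As a hint from the data, 8 of 12 libraries correlated best, on average, with their own number, and library 3 was the one most often highest in all 4 groups (44.2% to 60.0% of tested genes). A replicate block gave 1 higher and 36 lower members with SAHA, 24 and 3 with sonidegib, 14 and 10 with both, and 33 positive interactions. Of all tested genes it called 4562 higher and 3879 lower with SAHA, and 3824 and 4252 with sonidegib. With both drugs the counts were 4263 and 4881, and 1864 interactions were positive. Low genes such as CENPE are limited by unknown depth.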
